A study of Arabidopsis thaliana with 6 samples.

Results

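The nuclear genes of photosynthesis were examined in Arabidopsis thaliana plants mutated in HDIP1, HDIP2 and HDIP3 or in HDA19. They are a list of 49 genes chosen by gene identifier: 4 light-harvesting proteins of photosystem I (LHCA1 to LHCA4), 14 of photosystem II (the LHCB1 to LHCB6 families), 12 photosystem I subunits, 10 photosystem II subunits, 5 genes of electron transport and ATP synthase, and the 4 Rubisco small subunits. All 49 were among the 32548 genes with deposited values, and 48 were among the 23685 genes with enough reads to be tested. The remaining one, LHCB1.5, had no read in any of the 6 libraries.

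The plants were 20 days old, of the Col-0 background, and grew on Murashige and Skoog plates and soil at 22 °C with 16 h of light and 8 h of darkness. The 3 genotypes had 2 libraries each. The hdip1/2/3 triple mutant (hdip1-/-, hdip2-/-, hdip3-/-) was made by CRISPR-Cas9 editing, by bringing an hdip2 mutation into an hdip1/3 double mutant. HDIP1, HDIP2 and HDIP3 are proteins that bind the histone deacetylase HDA19 and are found in its complexes. The hda19 mutant (hda19-/-) carries a T-DNA insertion in the gene of that enzyme, and the wild type was Col-0 without either mutation. Each mutant genotype is represented by 1 line. The labels call the tissue seedlings, and the study's methods call the libraries independent biological replicates.

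Photosynthesis in land plants depends on proteins of both the plastid and the nuclear genome. The light-harvesting proteins bind chlorophyll and pass excitation energy to the photosystems, photosystem II splits water, plastocyanin and the cytochrome b6f complex carry electrons on to photosystem I, the ATP synthase uses the proton gradient, and Rubisco fixes carbon dioxide. The nuclear members are translated in the cytosol and imported into the chloroplast. They are among the most abundant messenger RNAs of a green leaf, and their transcription is known to depend on light, on the circadian clock and on the state of the chloroplast. Histone deacetylases such as HDA19 remove acetyl groups from histone tails and are mostly known as repressors of transcription.

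Values are read counts per gene after the authors' adjustment to a common library size, here called adjusted reads. Between 43906641 and 48407739 whole reads per library were recovered from them, and counting error is therefore small for every member but LHCB1.5. Precision was limited instead by having 2 libraries per genotype. The levels of the mutated genes do not check the labels. HDA19 had 2832 and 4561 adjusted reads in hda19, against 4298 and 4416 in the wild type, and its log2 fold change of -0.28 was not past the test. HDIP1, HDIP2 and HDIP3 had log2 fold changes of 0.25, 0.37 and 0.08 in hdip1/2/3, also not past it. Neither kind of mutation has to reduce the level of its transcript.

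Some members are copies of one another, which matters for reads that were counted only where they mapped uniquely. LHCB1.1, LHCB1.2 and LHCB1.3 lie within 6835 bases of chromosome 1, at chr1:10474656-10475969 (minus strand), chr1:10472280-10473502 (minus strand) and chr1:10477885-10479114 (plus strand) in the TAIR10.1 assembly of RefSeq, and each is a single exon. Their coding sequences of 804 bases are between 95.6% and 96.4% identical in pairs, with 47 positions at which they differ and a longest identical run of 62 bases. The stretch from coding position 25 to 84, counted from the A of the start codon, is shown because it holds 8 of these positions, in capitals, by which a read can be given to its copy.
LHCB1.1: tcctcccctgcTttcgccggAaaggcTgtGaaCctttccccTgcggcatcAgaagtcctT
LHCB1.2: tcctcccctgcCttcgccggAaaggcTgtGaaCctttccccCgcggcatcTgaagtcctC
LHCB1.3: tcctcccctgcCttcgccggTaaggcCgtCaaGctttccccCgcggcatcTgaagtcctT

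Stretches of 50 bases of each transcript were sought in transcripts of genes elsewhere, leaving out genes that overlap the member itself. No match was found for 79.5% of them in LHCB1.1, 89.4% in LHCB1.2 and 83.0% in LHCB1.3. For stretches of 150 bases the share without a match was 100% in each. The lowest such share at 50 bases among the members was 71.8%, in LHCB2.2. Bases shared with an overlapping gene do not lower these shares. The labels give single-end reads of 50 bases and the study's methods give paired reads of 150 bases, so it is not known which of these shares applies. RBCS1B, RBCS2B and RBCS3B form a second such group, within 8333 bases of chromosome 5, and RBCS1B and RBCS2B are 97.3% identical over their coding sequence. The values of these copies are therefore uncertain to the extent that reads could not be placed.

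LHCB1.5 (AT2G34420, chr2:14522524-14523568, minus strand, TAIR10.1) is the neighbour of LHCB1.4 on chromosome 2. All of its 1045 exonic bases are also exonic in other annotated genes. The loci that overlap its exons are AT2G08665 and AT2G34410. Among 1188 genes whose exons were wholly covered by other genes, 95.5% had no read, against 24.2% of 22506 genes without such cover. The absence of reads on LHCB1.5 therefore says nothing about its expression. Of the other members, PSAG (61.4%), PSAH1 (53.3%) and LHCB2.3 (40.6%) shared the largest part of their exonic bases with another gene, and their levels may be too low for the same reason, which was not tested.

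The window from 250 bases before to 50 bases after the annotated start of the gene was read from TAIR10.1 for each member. The windows of 4 members are shown because they stood at the ends of the range. LHCB1.4 (chr2:14524357-14524656, plus strand) and PSAH2 (chr1:19454548-19454847, plus strand) had the largest log2 fold changes in hdip1/2/3, LHCB4.3 (chr2:16745378-16745677, plus strand) had the lowest in hda19, and RBCS2B (chr5:15382022-15382321, minus strand) had the lowest in hdip1/2/3. Capitals mark matches of 5 motifs on either strand. They were the G-box, spelled CACGTG, the I-box, spelled GATAAG, the box bound by CCAAT factors, spelled CCAATC, the evening element, spelled AAATATCT, and the TATA box, spelled TATAAA.
LHCB1.4: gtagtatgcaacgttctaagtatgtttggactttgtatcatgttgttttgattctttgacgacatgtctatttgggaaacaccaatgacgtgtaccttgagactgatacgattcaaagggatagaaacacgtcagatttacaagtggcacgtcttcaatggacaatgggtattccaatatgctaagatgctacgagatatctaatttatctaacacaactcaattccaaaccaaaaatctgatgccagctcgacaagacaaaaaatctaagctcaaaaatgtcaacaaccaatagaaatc
PSAH2: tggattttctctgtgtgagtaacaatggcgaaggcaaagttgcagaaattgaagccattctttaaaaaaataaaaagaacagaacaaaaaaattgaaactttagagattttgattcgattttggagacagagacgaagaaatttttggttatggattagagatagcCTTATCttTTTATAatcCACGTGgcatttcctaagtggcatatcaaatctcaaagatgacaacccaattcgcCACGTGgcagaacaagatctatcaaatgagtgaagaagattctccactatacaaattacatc
LHCB4.3: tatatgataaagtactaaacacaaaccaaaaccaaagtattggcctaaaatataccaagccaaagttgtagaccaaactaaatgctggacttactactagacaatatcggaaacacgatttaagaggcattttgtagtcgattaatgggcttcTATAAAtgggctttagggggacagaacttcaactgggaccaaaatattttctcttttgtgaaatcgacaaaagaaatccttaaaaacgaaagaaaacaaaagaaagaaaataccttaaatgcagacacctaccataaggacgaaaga
RBCS2B: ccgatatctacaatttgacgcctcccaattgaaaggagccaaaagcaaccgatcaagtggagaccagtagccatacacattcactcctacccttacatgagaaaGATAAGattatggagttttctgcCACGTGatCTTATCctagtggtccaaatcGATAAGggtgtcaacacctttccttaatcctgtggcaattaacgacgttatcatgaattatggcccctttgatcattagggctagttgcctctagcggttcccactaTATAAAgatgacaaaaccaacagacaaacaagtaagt

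The window of LHCB1.4 held none of these motifs, that of PSAH2 held 2 G-boxes, 1 I-box and 1 TATA box, that of LHCB4.3 held 1 TATA box, and that of RBCS2B held 1 G-box, 3 I-boxes and 1 TATA box. Over the 49 members, a G-box was present in 16 windows (32.7%), against 7.68% of 27443 windows of the same length in the genome. An I-box was present in 23 (46.9%), against 14.6% of all windows, and CCAATC in 18 (36.7%), against 12.3%. The evening element was present in 1 member, ATPC1 (2.04%), against 5.65% of all windows, and TATAAA in 24 (49.0%), against 52.1%. None of the 5 motifs holds the letters of another. The 6 members LHCB1.1, LHCB1.2, LHCB1.4, PSAN, PSBS and RBCS3B had no match. Windows follow the annotated start of each gene, which was not measured here, so those of copies need not be aligned. The last bases of the RBCS3B window recur near the beginning of the RBCS2B window, before its motifs. A lack of matches, and the splits that follow, therefore depend on the annotated starts. Log2 fold changes against the wild type had medians of 0.53 (hdip1/2/3) and 0.02 (hda19) over the 16 tested members with a G-box, and of 0.45 and 0.03 over the 32 without. The other splits went the other way in hdip1/2/3, with medians of 0.46 with and 0.51 without an I-box, 0.46 with and 0.51 without CCAATC, and 0.47 with and 0.53 without a TATA box. These differences were small beside the range of the members and were not tested. A match is a description of the letters and not of a bound site.

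In the first comparison, hdip1/2/3 was set against the wild type. Nearly all members had higher values in the mutant, but no single gene passed the test. The log2 fold changes of the members had a median of 0.49 and quartiles of 0.33 and 0.59, where the median of all genes tested was 0.00. Of the 48 members, 47 had a value above 0, and the range ran from -0.11 in RBCS2B to 1.01 in LHCB1.4. By limma-trend with Benjamini-Hochberg adjustment over all genes, 0 members passed an adjusted P value of 0.05, where 7.17% of all genes tested did. At an unadjusted P value under 0.05 there were 9 members, all higher, against 30.6% of all genes. On the recovered reads, limma-voom called 2 members, where it called 1198 genes higher and 937 lower of 23685. By the rule in the study's methods, a log2 fold change beyond 1 with an unadjusted P value under 0.05, 1 member was called (LHCB1.4), against 8.99% of all genes. Both hdip1/2/3 libraries exceeded both wild-type libraries for 33 of 48 members, where this was so for 30.7% of all genes. No member was lower in both, where 31.3% of all genes were.

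The spread between libraries of a genotype was of the same size as this median. The 2 hdip1/2/3 libraries differed by a median of 0.36 on the log2 scale over the members, with all 48 higher in replicate 2, and the 2 wild-type libraries differed by 0.49, with 45 higher in replicate 2. The hda19 libraries differed by 0.20 in the other direction, with 1 member higher in replicate 2. Over all genes tested, the median size of such a difference was 0.25, 0.19 and 0.28 in hdip1/2/3, hda19 and the wild type. The members thus differed in the same direction between libraries of one genotype as well as between genotypes. Without hdip1/2/3 replicate 2 the median log2 fold change was 0.29, without wild-type replicate 1 it was 0.25, and without wild-type replicate 2 it was 0.77. It stood at 0.29 once trends of each library on transcript length and GC content were removed, and at 0.26, with 42 members above 0, after quantile normalization.

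**Figure D1:**
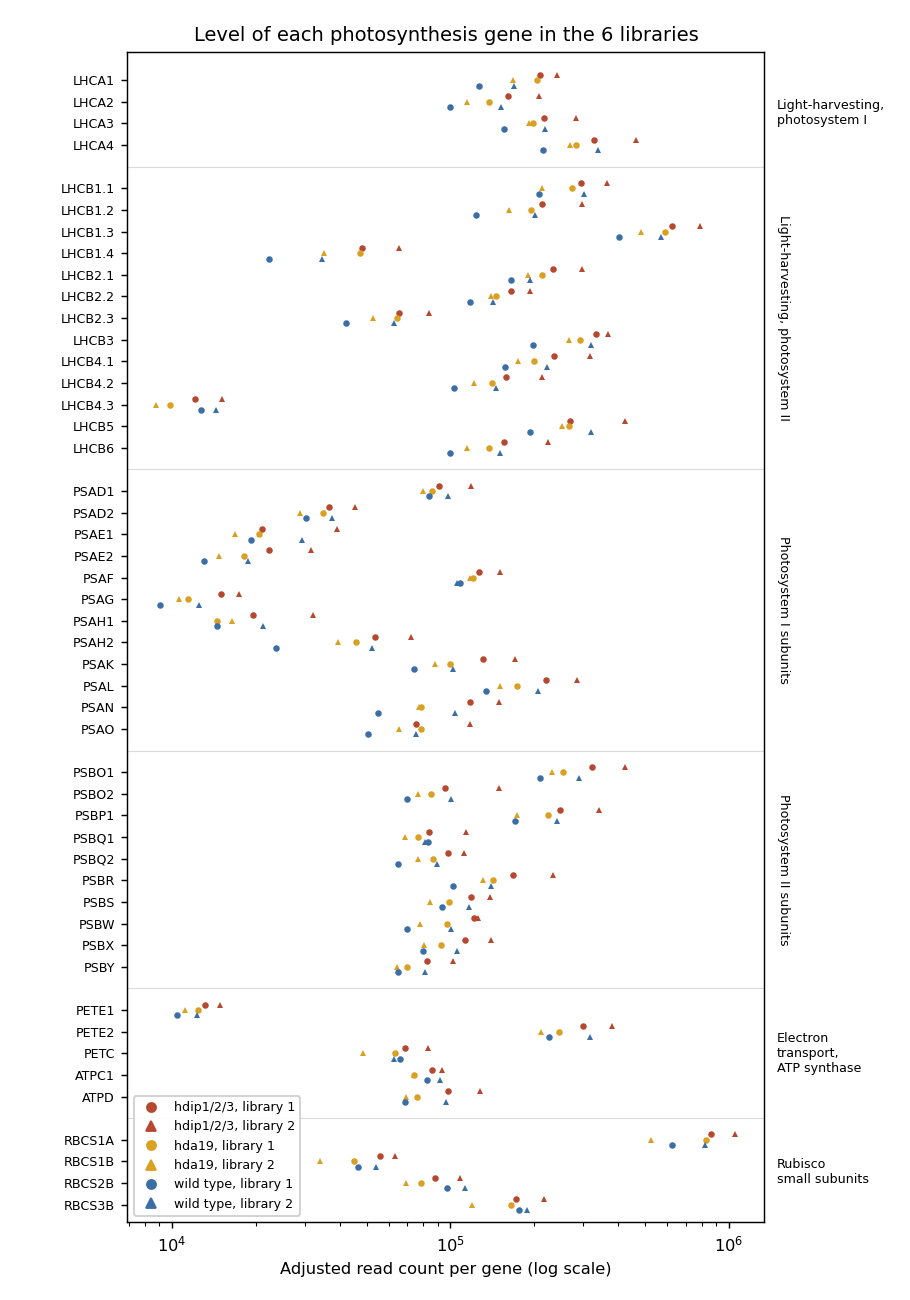
Adjusted reads per gene (horizontal axis, log scale) of the 48 tested members in each of the 6 libraries, with hdip1/2/3 above hda19 above the wild type within each row and replicate 1 as circles, replicate 2 as triangles. Replicate 2 of hdip1/2/3 is the rightmost point of most rows, whereas replicate 1 of the wild type is often the leftmost.

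As a share of all adjusted reads, the members took 16.5% and 19.4% of the hdip1/2/3 libraries, 15.4% and 13.7% of the hda19 libraries, and 12.1% and 15.4% of the wild-type libraries. The hdip1/2/3 libraries were the highest, and the hda19 libraries lay within the range of the wild type. The mean was 17.9% ± 2.05 in hdip1/2/3, 14.5% ± 1.201 in hda19 and 13.8% ± 2.33 in the wild type (SD, n = 2 each). hdip1/2/3 exceeded the wild type by 4.15 percentage points, with a P value of 0.3333 by a two-sided exact permutation test, which is the smallest that 2 libraries against 2 can give. That difference was 2.499 points without wild-type replicate 1, 5.80 without wild-type replicate 2 and 2.70 without hdip1/2/3 replicate 2. For hda19 against the wild type the difference was 0.757 points (exact permutation P = 1). Without wild-type replicate 1 it was -0.893 points, without wild-type replicate 2 it was 2.41 points, and without hda19 replicate 1 and replicate 2 it was -0.092 and 1.61 points. Between the mutants, hdip1/2/3 exceeded hda19 by 3.39 points (exact permutation P = 0.3333), and by 1.94 points without hdip1/2/3 replicate 2. Of the 10 genes with the most adjusted reads, 9 and 9 were members in the hdip1/2/3 libraries, 9 and 9 in the hda19 libraries, and 6 and 8 in the wild-type libraries. The samples are of bulk tissue, so that a larger part of green cells and more of these RNAs per cell cannot be told apart.

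**Figure D2:**
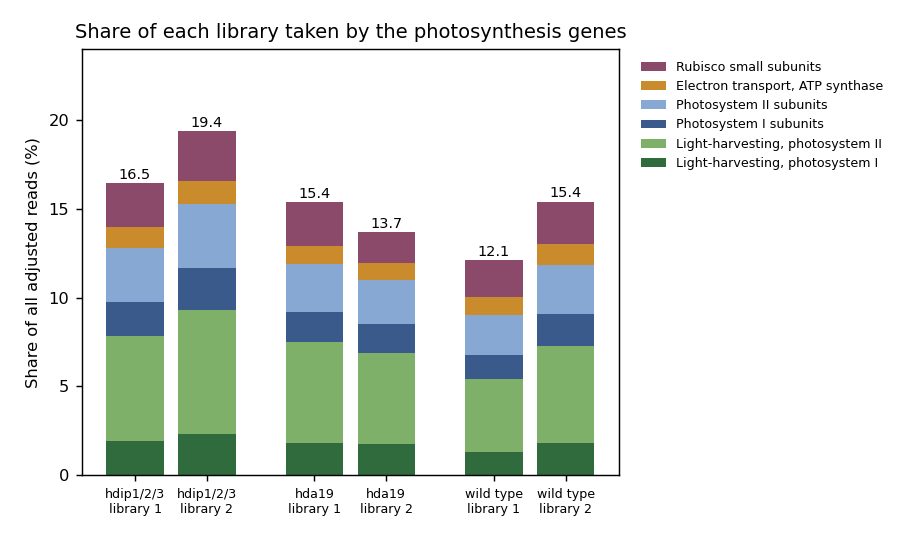
Share of all adjusted reads (vertical axis, percent) taken by the members in each library, stacked by role. The hdip1/2/3 bars reach 16.5% and 19.4%, the hda19 bars 15.4% and 13.7%, and the wild-type bars 12.1% and 15.4%.

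The second comparison, hda19 against the wild type, gave values around 0. The median log2 fold change of the 48 members was 0.03, with quartiles at -0.14 and 0.12, and 25 members were above 0 and 23 below. The lowest was LHCB4.3 at -0.54 and the highest LHCB1.4 at 0.56. By limma-trend with Benjamini-Hochberg adjustment, 0 members passed, where 2.84% of all genes did. Only LHCB4.3 and RBCS2B had an unadjusted P value under 0.05, both lower, against 17.6% of all genes. limma-voom called 0 members, where it called 538 genes higher and 221 lower of 23685. By the fold change rule of the methods 0 members were called, against 6.74% of all genes. For 2 members, LHCB1.4 and PSAF, both hda19 libraries exceeded both wild-type libraries, against 23.7% of all genes, and for 6 they were lower, against 24.1%. These 6 were LHCB4.3, PSBQ1, ATPC1, RBCS1B, RBCS2B and RBCS3B. The median rested on the wild-type libraries: it was -0.26 without replicate 1 and 0.26 without replicate 2.

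The third comparison set hdip1/2/3 directly against hda19. It tests whether the mutants differ, since both share the wild-type libraries in the comparisons above. The median was 0.50 on the log2 scale, all 48 members were above 0, and the range was from 0.21 in PSAF to 0.77 in PSAN. No gene in the whole table passed the adjusted P value in limma-trend, so that the background was 0% and the count of members 0. There were 9 members at an unadjusted P value under 0.05, against 21.9% of all genes, and limma-voom called 0 members and 0 of all genes. The fold change rule called 0 members, against 3.63% of all genes. Both hdip1/2/3 libraries exceeded both hda19 libraries for 47 of 48 members, where 30.2% of all genes did so and 29.8% were lower. PSAO was the exception. After quantile normalization the median of this comparison was 0.13, with 37 members above 0, after removal of length and GC trends it was 0.27, and without hdip1/2/3 replicate 2 it was 0.29.

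**Figure D3:**
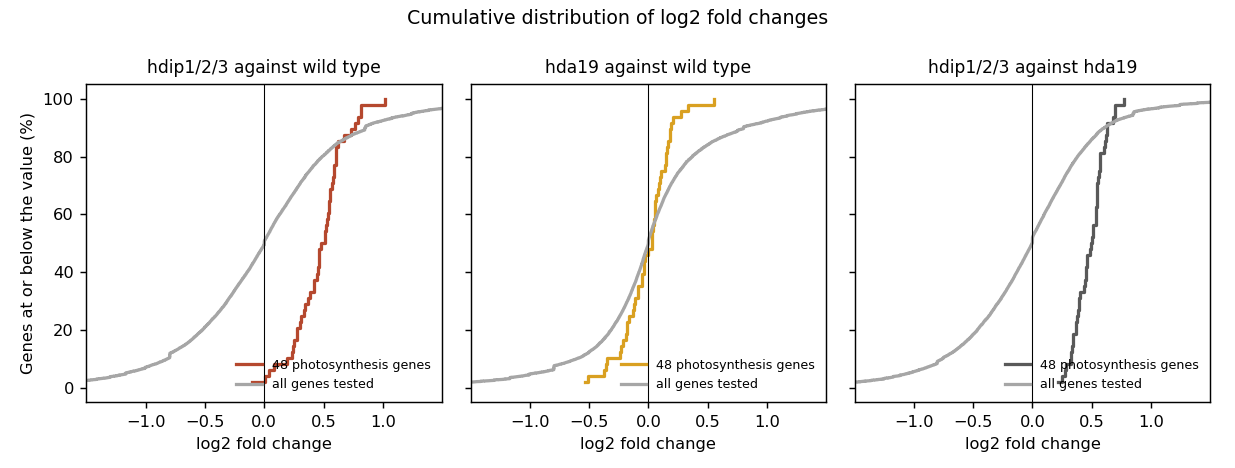
Cumulative percentage of genes (vertical axis) at or below each log2 fold change (horizontal axis, from -1.5 to 1.5), for the 48 members in colour and all 23685 genes tested in grey. The curve of the members lies to the right in hdip1/2/3 against the wild type (median 0.49) and against hda19 (median 0.50), and crosses 0 near its middle in hda19 against the wild type (median 0.03).

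The 4 light-harvesting proteins of photosystem I form pairs beside the core of that photosystem, LHCA1 with LHCA4 and LHCA2 with LHCA3. All 4 had values above 0 in hdip1/2/3 (median log2 fold change 0.55) and in hda19 (0.06), and none passed the test. LHCA1 (AT3G54890) had 210421 and 241043 adjusted reads in hdip1/2/3, 204406 and 167068 in hda19, and 126548 and 169425 in the wild type. The hdip1/2/3 libraries were the highest, and 1 hda19 library reached above both wild-type libraries. Its log2 fold change was 0.62 in hdip1/2/3 (SE 0.25, adjusted P = 0.14 by limma-trend) and 0.34 in hda19 (adjusted P = 0.58). LHCA2 (AT3G61470) had 161222 and 208062 in hdip1/2/3, 138110 and 114646 in hda19, and 99666 and 152319 in the wild type. Its wild-type libraries lay below both hdip1/2/3 libraries and enclosed those of hda19. LHCA3 (AT1G61520) had 217617 and 281449 in hdip1/2/3, 198531 and 191845 in hda19, and 156088 and 219028 in the wild type. LHCA4 (AT3G47470) had 328455 and 462474 in hdip1/2/3, 282721 and 267865 in hda19, and 214774 and 337265 in the wild type. For LHCA3 and LHCA4 the hdip1/2/3 libraries overlapped the higher wild-type library. With 243701 adjusted reads per kb of transcript over all libraries, LHCA4 had the highest level of the 4.

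The light-harvesting proteins of photosystem II comprise the trimeric antenna (LHCB1, LHCB2 and LHCB3) and the monomeric linkers to the core (LHCB4, LHCB5 and LHCB6, also called CP29, CP26 and CP24). Medians on the log2 scale were 0.54 for hdip1/2/3 and 0.14 for hda19, with 13 of 13 and 10 of 13 above 0, and none passed the test. LHCB1.4 had the largest log2 fold change of all members in both mutants. It had 48189.5 and 65153 adjusted reads in hdip1/2/3, 47318 and 35158 in hda19, and 22316 and 34455 in the wild type. All 4 mutant libraries exceeded both wild-type libraries, in hda19 replicate 2 by a small margin. Its log2 fold change was 1.01 in hdip1/2/3 (SE 0.26, adjusted P = 0.057 by limma-trend) and 0.56 in hda19 (adjusted P = 0.33). The value in hdip1/2/3 lay near the threshold. Its adjusted P value was 0.031 after quantile normalization, 0.032 with a mean of at least 10 adjusted reads as the filter, 0.036 by limma-voom and 0.013 without length and GC trends, and over all alternatives it ranged from 0.013 to 0.39.

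LHCB4.3, also known as LHCB8, is the least expressed LHCB4 copy and had the lowest level of all tested members per kb of transcript. It had 12151 and 15188 adjusted reads in hdip1/2/3, 9881 and 8799 in hda19, and 12699 and 14401 in the wild type. The hda19 libraries were below all others, whereas hdip1/2/3 and the wild type overlapped. Its log2 fold change was -0.54 in hda19 (SE 0.15, adjusted P = 0.11 by limma-trend) and 0.01 in hdip1/2/3. In hda19 the adjusted P value was 0.017 without length and GC trends, and between 0.077 and 0.51 in the other alternatives. LHCB1.2 (AT1G29910) had 213903 and 297918 in hdip1/2/3, 194550.0 and 162210.0 in hda19, and 123869 and 201999 in the wild type. LHCB1.3 (AT1G29930) had 623076 and 786897 in hdip1/2/3, 587706 and 481588 in hda19, and 402831 and 569637 in the wild type. Both were highest in hdip1/2/3, by 0.67 and 0.55 on the log2 scale, while hda19 overlapped the wild type. LHCB1.3 had the highest level of the light-harvesting genes, with 467715 adjusted reads per kb of transcript over all libraries. The other 9 tested members of this group had log2 fold changes between 0.39 and 0.61 in hdip1/2/3 and between -0.05 and 0.18 in hda19.

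**Figure D4:**
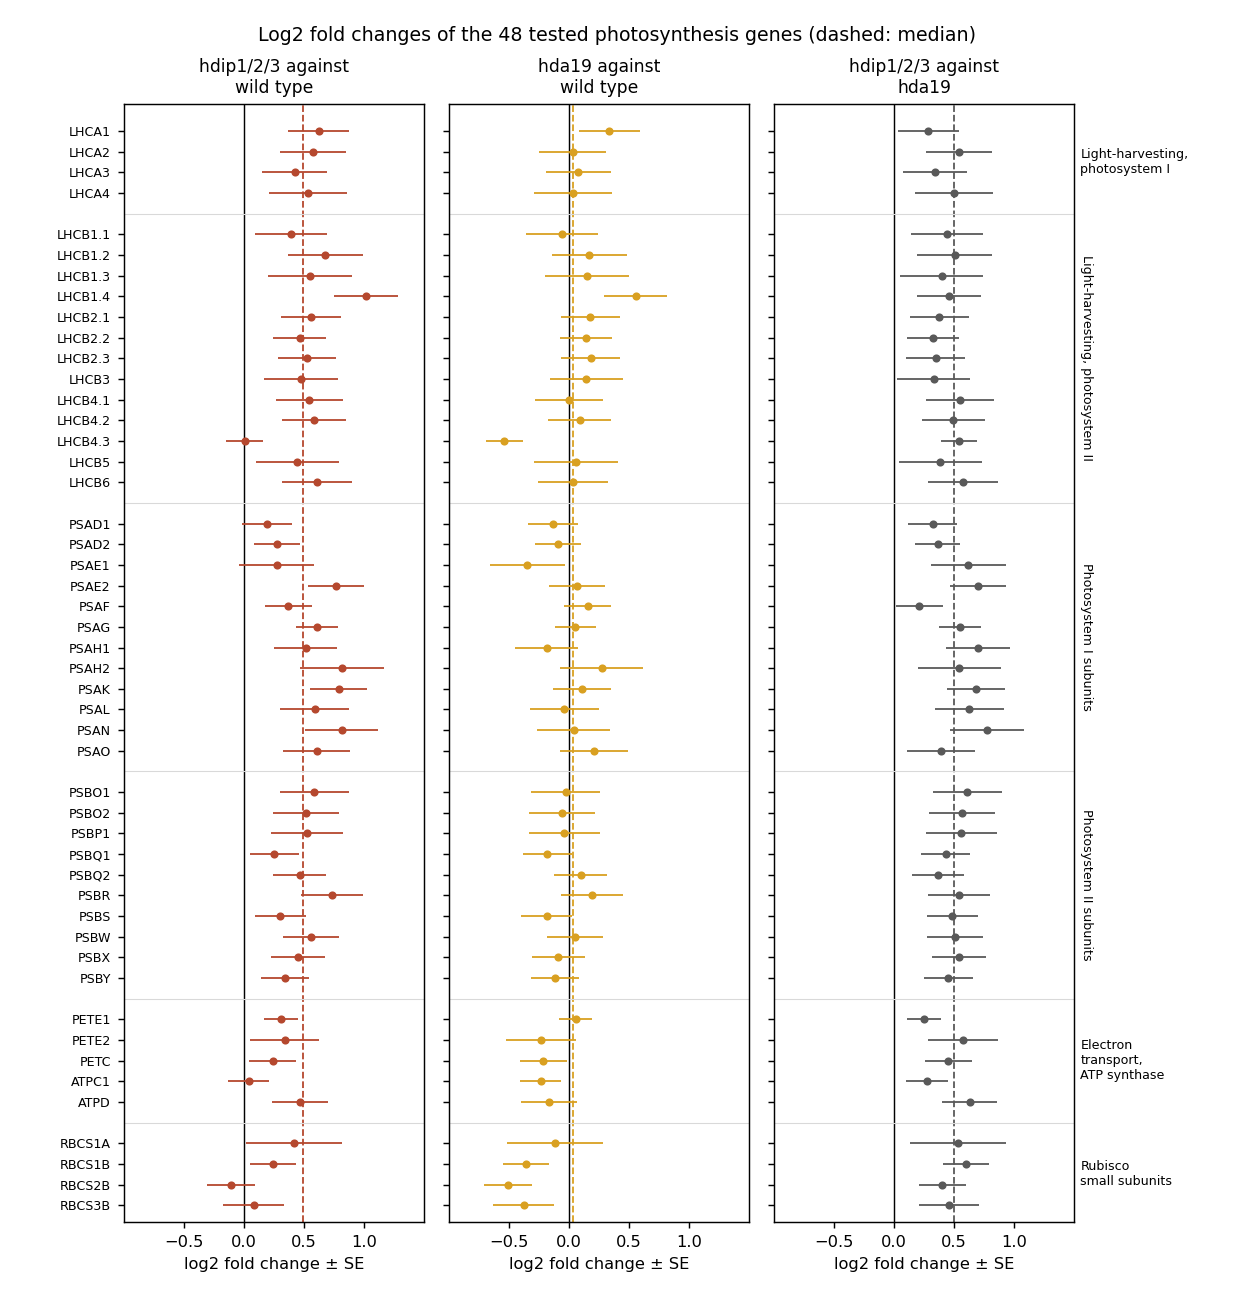
Log2 fold change ± SE of each tested member from limma-trend, for hdip1/2/3 against wild type, hda19 against wild type and hdip1/2/3 against hda19, with members grouped by role from top to bottom and a dashed line at the median of the 48. In the left and right panels nearly all points lie above 0, with medians of 0.49 and 0.50, and in the middle panel they lie on both sides of 0 with the Rubisco small subunits on the left.

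The photosystem I subunits had the highest median of the roles in hdip1/2/3, with a log2 fold change of 0.60 and 12 of 12 members above 0. In hda19 the median was 0.05, with 7 above 0 and 5 below. PSAH, PSAL and PSAO are subunits at the side where light-harvesting complex II can dock. PSAH2 (AT1G52230) had 53442 and 72043 adjusted reads in hdip1/2/3, 45752 and 39562 in hda19, and 23678 and 52468 in the wild type. Its wild-type libraries differed by more than 2 times, and the hdip1/2/3 libraries alone both lay above them. The log2 fold change was 0.82 in hdip1/2/3 (SE 0.35, adjusted P = 0.16 by limma-trend) and 0.27 in hda19 (adjusted P = 0.77). PSAL (AT4G12800), the photosystem I subunit with the highest level per kb of transcript, had 219959 and 284377 in hdip1/2/3, 173364 and 151109 in hda19, and 134018 and 206313 in the wild type. Its hda19 libraries lay between those of the wild type.

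PSAN is a subunit on the lumen side, near the place where plastocyanin binds. It had 117468 and 149699 adjusted reads in hdip1/2/3, 78111 and 76975 in hda19, and 54753 and 104008 in the wild type. The hdip1/2/3 libraries were highest, and its difference between the mutants was the largest of all members, with a log2 fold change of 0.77 (SE 0.30, adjusted P = 0.21 by limma-trend). PSAE1 and PSAE2 encode the same stromal subunit, which takes part in the docking of ferredoxin. PSAE1 (AT4G28750) had 20996 and 39194 in hdip1/2/3, 20619 and 16909 in hda19, and 19268 and 29260.0 in the wild type. Its log2 fold change in hda19 of -0.35 was the lowest of the photosystem I subunits, and its libraries overlapped. PSAE2 was at 0.77 in hdip1/2/3 (SE 0.23, adjusted P = 0.078) and 0.07 in hda19. The 2 subunits that border the antenna, PSAG and PSAK, had log2 fold changes of 0.61 and 0.79 in hdip1/2/3, with adjusted P values of 0.070 and 0.079, and 0.05 and 0.11 in hda19. PSAD1, PSAD2 and PSAF were lower in this order, with 0.19, 0.27 and 0.37 in hdip1/2/3.

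Photosystem II was represented by the extrinsic proteins that stabilise the water-splitting manganese cluster (PSBO, PSBP and PSBQ), the subunit PSBR, the photoprotective protein PSBS and the small membrane subunits PSBW, PSBX and PSBY. The median on the log2 scale was 0.49 in hdip1/2/3, with 10 of 10 above 0, and -0.05 in hda19, with 3 above 0. PSBR (AT1G79040) had 168259 and 232809 adjusted reads in hdip1/2/3, 142115 and 130562 in hda19, and 101892 and 139718 in the wild type. The hdip1/2/3 libraries exceeded all others, with a log2 fold change of 0.73 (SE 0.26, adjusted P = 0.11 by limma-trend), and the value in hda19 was 0.19. After quantile normalization the adjusted P value of PSBR in hdip1/2/3 was 0.049. PSBO1 (AT5G66570) had 322989 and 424959 in hdip1/2/3, 253524 and 232107 in hda19, and 210238 and 290255 in the wild type. It too was highest in hdip1/2/3 (0.58), while hda19 lay within the range of the wild type.

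PSBS (AT1G44575), which triggers the release of excess light energy as heat, had 118793 and 138681 adjusted reads in hdip1/2/3, 99107 and 84738 in hda19, and 93029.8 and 116640.0 in the wild type. The log2 fold change was 0.30 for hdip1/2/3 and -0.18 for hda19, the hda19 value being the lowest of the 10. PSBQ1 (AT4G21280) had 84039 and 113849 in hdip1/2/3, 76234 and 68918 in hda19, and 83314 and 80951 in the wild type. The mutants thus stood on opposite sides of the wild type, at 0.25 and -0.18 on the log2 scale. The difference between them was 0.43 (SE 0.20, adjusted P = 0.25 by limma-trend) and did not pass the test.

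Plastocyanin is the lumenal copper protein that reduces photosystem I, PETC is the Rieske protein of the cytochrome b6f complex, and ATPC1 and ATPD are the gamma and delta subunits of the chloroplast ATP synthase. For these 5 genes the medians were 0.31 for hdip1/2/3 and -0.21 for hda19 on the log2 scale, with 5 and 1 above 0. ATPC1 (AT4G04640) had 86012 and 93368 adjusted reads in hdip1/2/3, 74226 and 74000.1 in hda19, and 82656 and 92070 in the wild type. It was lower in both hda19 libraries than in the wild type (log2 fold change -0.24, SE 0.17, adjusted P = 0.57 by limma-trend), whereas hdip1/2/3 overlapped the wild type (0.04). ATPD (AT4G09650) had 98411 and 127432 in hdip1/2/3, 75800.4 and 69193 in hda19, and 68598 and 96111 in the wild type. The 2 ATP synthase subunits differed in hdip1/2/3, with 0.46 for ATPD. PETE2 (AT1G20340) had 299033 and 381640.0 in hdip1/2/3, 244482 and 211312 in hda19, and 225058 and 317211 in the wild type. Its hdip1/2/3 libraries overlapped the wild type (0.34). This value was -0.040 after quantile normalization.

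The 4 small subunits of Rubisco had the lowest medians of the roles, at 0.16 for hdip1/2/3 and -0.37 for hda19 on the log2 scale. All 4 were below 0 in hda19, and 3 of 4 were above 0 in hdip1/2/3. RBCS1A (AT1G67090) had 860707 and 1054710 adjusted reads in hdip1/2/3, 825664 and 524699 in hda19, and 621775 and 819727 in the wild type. It was the member with the highest level, with 618728 adjusted reads per kb of transcript over all libraries, and its hda19 libraries lay outside those of the wild type on either side, while both hdip1/2/3 libraries were higher than both. RBCS1B (AT5G38430) had 55959 and 63437 in hdip1/2/3, 45190.2 and 34105 in hda19, and 46640.2 and 54222 in the wild type. Here hdip1/2/3 lay above and hda19 below the wild type, with log2 fold changes of 0.24 and -0.36, and the difference between the mutants was 0.60 (SE 0.19, adjusted P = 0.19 by limma-trend).

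RBCS2B (AT5G38420) had 87708 and 108182 adjusted reads in hdip1/2/3, 78156 and 69375 in hda19, and 97359 and 112839 in the wild type. It was the sole member below 0 in hdip1/2/3 (-0.11, SE 0.20), where its libraries overlapped the wild type, and in hda19 its log2 fold change was -0.51 (adjusted P = 0.24 by limma-trend). RBCS3B (AT5G38410) had 171580.0 and 216047 in hdip1/2/3, 164707 and 119492 in hda19, and 176889 and 187558 in the wild type. Its value was 0.08 in hdip1/2/3 and -0.38 in hda19, and both hda19 libraries were below the wild type. The fitted values of the 3 clustered copies on chromosome 5 were below that of RBCS1A on chromosome 1 in each mutant (0.42 for hdip1/2/3 and -0.12 for hda19), a difference that was not tested.

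Among the members, the order of levels per kb of transcript began with RBCS1A, LHCB1.3, LHCA4, LHCB3 and LHCB1.1 and ended with PSAH1, PETE1 and LHCB4.3. The first was 67.1 times the last. The mean level of RBCS1A was 755290.5 ± 108187 adjusted reads per kb in hdip1/2/3, 532478 ± 167835 in hda19 and 568416 ± 110389 in the wild type (SD, n = 2 each). For LHCB1.3 the means were 573160.0 ± 94178 in hdip1/2/3, 434672 ± 61006 in hda19 and 395312 ± 95894 in the wild type. The spreads of these 2 neighbours between libraries overlapped, but RBCS1A exceeded LHCB1.3 within each of the 6 libraries. Both stood well above LHCA4, at 305378 ± 73178 in hdip1/2/3. Within each library LHCA4 and LHCB3 exceeded LHCB1.1, whereas the order of LHCA4 and LHCB3 changed between libraries. Differences in level between genes were not tested.

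Because the members differed together between libraries, each was also expressed relative to the median member of its own library, as a description. On this scale, LHCB1.4 exceeded the wild type by 0.54 in hdip1/2/3 and by 0.66 in hda19 (log2), and it was above the wild-type libraries in all 4 mutant libraries. LHCB4.3 stood at -0.47 in hdip1/2/3 and -0.44 in hda19, relative to the wild type. RBCS2B stood at -0.58 in hdip1/2/3 and -0.41 in hda19, and RBCS3B at -0.39 and -0.28. ATPC1 stood at -0.44 in hdip1/2/3, whereas its hda19 libraries overlapped the wild type. Of the 48 members, 5 were below both wild-type libraries in all 4 mutant libraries on this scale (LHCB4.3, PSBS, RBCS1B, RBCS2B and RBCS3B), and 6 were above them (LHCA1, LHCB1.4, LHCB2.1, PSAE2, PSAK and PSBR). No share over all genes was computed on this scale, so these counts are not read as a result about the members. The genes given with values were chosen after these were seen.

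The share of a family's reads held by one copy does not depend on the scaling between libraries. RBCS1A held 73.2% and 73.1% of the RBCS reads in hdip1/2/3, 74.1% and 70.2% in hda19, and 66.0% and 69.8% in the wild type. RBCS2B held 7.46% and 7.50% in hdip1/2/3, 7.02% and 9.28% in hda19, and 10.3% and 9.61% in the wild type. All 4 mutant libraries thus lay above the wild type for RBCS1A and below it for RBCS2B. In the LHCB1 family, LHCB1.4 held 4.09% and 4.299% in hdip1/2/3, 4.29% and 3.94% in hda19, and 2.95% and 3.11% in the wild type. LHCB1.1 held 24.9% and 24.1% in hdip1/2/3, 24.8% and 23.8% in hda19, and 27.5% and 27.2% in the wild type. Here the mutants lay above the wild type for LHCB1.4 and below it for LHCB1.1. LHCB4.3 held 2.99% and 2.79% of the LHCB4 reads in hdip1/2/3, 2.81% and 2.89% in hda19, and 4.66% and 3.75% in the wild type. PSAE2 held 51.6% and 44.6% of the PSAE reads in hdip1/2/3, 46.8% and 46.7% in hda19, and 40.4% and 39.1% in the wild type. Shares of 10 families were computed, these copies were chosen after their values were seen, and an exact permutation test of 2 libraries against 2 cannot give a P value below 0.3333. Shares within a family sum to a fixed total, so that its copies are not separate observations.

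**Figure D5:**
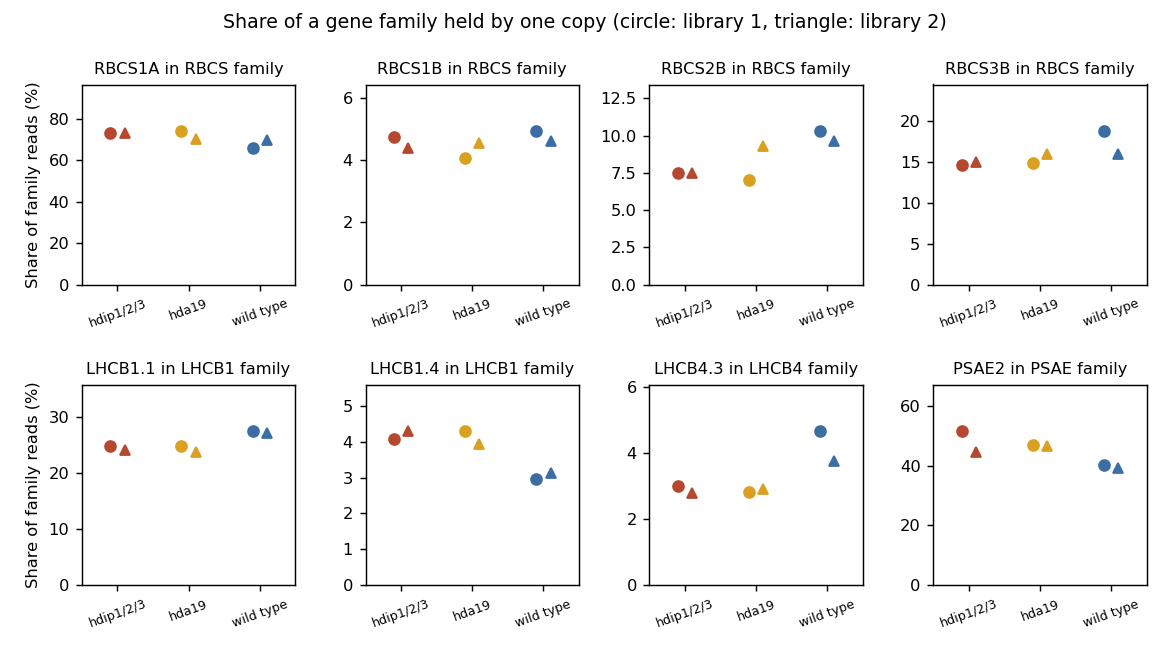
Share of a family's adjusted reads held by a single copy (vertical axes, percent, from 0) in each library, with hdip1/2/3 left, hda19 in the middle and the wild type right, circles for replicate 1 and triangles for replicate 2. RBCS1A, LHCB1.4 and PSAE2 hold a larger share in all 4 mutant libraries than in the wild type, RBCS2B, LHCB1.1 and LHCB4.3 a smaller one, and RBCS1B and RBCS3B overlap in one mutant.

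Other genes of the pathway were read from the same fit. The calls in these lists are few and are read beside the share of all genes called in either direction, 7.17% in hdip1/2/3 and 2.84% in hda19. Of 13 genes of chlorophyll synthesis, 1 was called in hdip1/2/3, a share near that of all genes. It was PORC, a protochlorophyllide oxidoreductase, which fell. It had 11396 and 10815 adjusted reads in hdip1/2/3, 10964 and 11366 in hda19, and 15292 and 16013 in the wild type, with a log2 fold change of -0.50 in hdip1/2/3 (adjusted P = 0.046 by limma-trend) and -0.49 in hda19 (adjusted P = 0.073). Both mutants were below both wild-type libraries. CHLH, a subunit of the magnesium chelatase at the branch to chlorophyll, had log2 fold changes of -0.79 and -0.37 in the same order, with adjusted P values of 0.061 and 0.43. PORA had the largest log2 fold change of the list, 1.06 in hda19 (adjusted P = 0.28 by limma-trend), and stood at 0.14 in hdip1/2/3. Its level was low, with 154 and 87 adjusted reads in hda19 and 41 and 73 in the wild type. The median of the list was 0.00 in hdip1/2/3 and -0.21 in hda19. Of the 17 genes of the Calvin cycle, 0 were called in hdip1/2/3 (median 0.05, 9 above 0), and 1 fell in hda19 (median -0.30, 17 of 17 below 0). The single call is read no further as a result about the list. It was CP12-2, a regulator of the cycle, with 18016 and 19866 adjusted reads in hdip1/2/3, 15394 and 13685 in hda19, and 23085 and 22810.3 in the wild type. Its log2 fold change in hda19 was -0.66 (adjusted P = 0.044 by limma-trend). The largest change of the list in hdip1/2/3 was a rise, in CP12-1, at 0.66 (adjusted P = 0.11 by limma-trend). CP12-1 stood at -0.03 in hda19.

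Of 8 further genes of electron transport, such as the ferredoxins and ferredoxin-NADP reductases, 0 were called in either mutant, with medians of 0.11 in hdip1/2/3 and -0.30 in hda19. Among 11 regulators of photosynthesis genes, GUN1, which relays signals of the plastid to the nucleus, fell in hdip1/2/3 (log2 fold change -0.68, adjusted P = 0.028 by limma-trend). The GATA factor GNC fell in hda19 (-0.74, adjusted P = 0.040). Both also lay below both wild-type libraries in the other mutant. GUN1 stood at -0.39 in hda19 and GNC at -0.42 in hdip1/2/3, with adjusted P values of 0.17 and 0.10 by limma-trend. GLK1 and GLK2, activators of chloroplast genes, were at -0.24 and 0.39 in hdip1/2/3 and -0.34 and 0.10 in hda19, and did not pass. In the list of light-induced and minor light-harvesting proteins, ELIP1, an early light-induced protein, fell in hdip1/2/3 (-1.46, adjusted P = 0.0498 by limma-trend). ELIP1 was also below both wild-type libraries in hda19 (-1.06, adjusted P = 0.17). The other 4 were not called in either mutant. With pairwise fits no gene in the table passed the test, these calls included. That outcome held for every gene and cannot single these calls out. Fits with a library left out cannot decide whether the calls hold, since a genotype then has 1 library. The 14 plastid-encoded photosynthesis genes of the list were not in the table and were not analysed here.

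Lists of marker genes were read beside the members, and their part in the result was not tested. Of the 8 clock genes, whose levels depend on the time of day, 7 had values below 0 in hdip1/2/3 and 3 in hda19, and 0 passed the test in either. Their summed level was 24688 to 31443 adjusted reads in hdip1/2/3, 35353 to 37310 in hda19 and 36306 to 47420 in the wild type. LHY and CCA1 made up most of it. TOC1, the only one above 0 in hdip1/2/3, lay above both wild-type libraries in both mutants (log2 fold changes 0.48 and 0.63). Between hdip1/2/3 and hda19, all 8 were below 0 (median -0.43), and 0 passed the test. Of the 11 root genes, 6 were tested and SCR fell in hdip1/2/3. SCR was also below both wild-type libraries in hda19, but did not pass (log2 fold change -0.53, adjusted P = 0.10 by limma-trend). The root hair genes EXPA7, EXPA18 and RHD6 had no read in any library. Every root gene but SCR had at most 12.15 adjusted reads in any library. The summed level of the root list was 1391 to 1481 in hdip1/2/3, 1533 to 1575 in hda19 and 1980.4 to 2547 in the wild type. Nearly all of it was SCR, so the sum is not read as an amount of root. Of the 6 genes of senescent leaves, SAG13 and SEN1 rose in both mutants and SAG12 was at 0 in all libraries. NYE1, ORE1 and PAO were not called, with log2 fold changes of -0.23, 0.41 and 0.14 in hdip1/2/3 and 0.07, 0.99 and 0.13 in hda19. The sum was 7149 to 8477 in hdip1/2/3, 9054 to 9316 in hda19 and 5435 to 5476 in the wild type. SAG13 alone had 3023 and 1831 in hdip1/2/3, 3668 and 3249 in hda19, and 600 and 517 in the wild type. The 3 guard cell genes and the 4 epidermis genes had no call, with sums of 1454 to 1806 and 34326 to 38132 in hdip1/2/3, 2030.3 to 2399.9 and 34977 to 37949 in hda19, and 2294 to 2721 and 37960 to 41233 in the wild type. Of the 6 vascular genes, SWEET12, a sucrose exporter of the phloem, fell in both mutants, and the sum was 21270.3 to 21297 in hdip1/2/3, 19688 to 19757 in hda19 and 23246 to 25369 in the wild type. The 7 floral genes summed to at most 331 adjusted reads in any library, with no call.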

How the data were processed

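RNA-seq was analysed for 6 libraries of 3 genotypes, grouped by the sample titles. The study's methods state that the authors aligned the reads with HISAT2 to TAIR10, took gene-wise numbers of uniquely mapped reads from featureCounts and went on in edgeR. The deposited values are a signal per gene, the authors' counts after scaling to one library size. Their form, that of quantile-adjusted pseudo-counts, was inferred from the values. Undoing this adjustment gave a number within 0.01 of a whole read for 195288 of 195288 values. These reads served for depth and for limma-voom. Values of paralogs and of overlapping genes depend on how reads were assigned, and no strand setting is given in the sources used here.

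A gene was kept when the mean of any genotype reached 1, and log2(value + 1) was fitted by limma-trend with genotype as the only term (R 4.3.3, limma 3.58.1), with Benjamini-Hochberg adjustment over all genes. Fold changes are on this scale. Fold changes understate the change of genes with few reads. Spread was shared by all 6 libraries. Plots used Python 3.11.15 and matplotlib 3.10.9. Gene positions, transcript lengths, overlaps, coding sequences and promoter windows came from RefSeq's TAIR10.1. The members and gene lists were chosen with earlier results of these data known. Within each role, values per library were given for the 2 members with the largest absolute log2 fold change in each mutant and for the one with the highest level. In the other lists, called genes and the 2 with the largest change could be named. Alternatives were median-of-ratios scaling, quantile normalization, a pseudocount of 0.1, no filter, a mean of at least 10, pairwise fits, a replicate block, limma-voom, removal of length and GC trends (lowess, span 0.3), the fold change rule and the omission of each library. The procedure was tested on simulated data.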

Additional observations from a re-analysis of the deposited data

Results flagged for a closer look

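PSBQ1 and RBCS1B were flagged because both hdip1/2/3 libraries lay above and both hda19 libraries below the 2 wild-type libraries. Taken singly, 30.7% of all genes were higher in both hdip1/2/3 libraries and 24.1% lower in both hda19 libraries. The joint pattern was not counted over all genes, so it is not shown to be unusual. The log2 fold change of hdip1/2/3 against hda19 was 0.43 for PSBQ1 (adjusted P = 0.25 by limma-trend) and 0.60 for RBCS1B (adjusted P = 0.19), so that neither difference between the mutants passed the test. The part of the shared wild-type libraries in this pattern was not tested.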

How the results depend on the processing

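Under every setting at least 40 of 48 members stayed above 0 in hdip1/2/3. The number of members called higher in hdip1/2/3, 0 as reported, was 5 after quantile normalization, where 1277 of all 23685 genes were called higher and 1022 lower. It was 3 with a mean of at least 10, where 1534 of 20040 genes were higher and 1350 lower. By limma-voom it was 2, where 1198 genes were higher and 937 lower. Without length and GC trends it was 1, where 1543 were higher and 922 lower, and by the fold change rule 1, where 1165 and 965 were. These member counts are not read as a result about the members. The median of 0.49 became 0.26 and 0.29 after quantile normalization and removal of length and GC trends. In hda19, 1 member was called lower without these trends (LHCB4.3), where 1174 of all genes were called higher and 762 lower. For hdip1/2/3 against hda19 the median was 0.13 after quantile normalization and 0.27 without these trends. The difference in the share of the library, 3.39 percentage points as reported, was 1.94 to 4.84 with single libraries left out. By median-of-ratios scaling the value was 5.48, but there the scaled sums were divided by a total common to all libraries. A share of a library's own total does not change with such scaling, so 5.48 is not read as a change of the share. With single libraries left out, the medians ranged from 0.25 to 0.77 in hdip1/2/3, from -0.26 to 0.26 in hda19 and from 0.29 to 0.69 between the mutants. After quantile normalization PETE2 was at -0.040 in hdip1/2/3, and LHCA1 and LHCA3 at -0.16 and -0.13 between the mutants; for these the cause was not tested.

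Over all genes, 1699 were called in hdip1/2/3 and 673 in hda19. With no filter, the numbers were 34 higher and 33 lower in hdip1/2/3, 49 and 42 in hda19, and 14 and 26 between the mutants. With pairwise fits they were 0 in every comparison. Over all genes tested, replicate numbers did not pair the libraries, as the deviations of same-numbered libraries correlated at 0.13, -0.08 and -0.07. These correlations do not settle the matter for the members alone. Replicate 2 was higher for 48 of 48 members in hdip1/2/3, 45 in the wild type and 1 in hda19. Whether replicate numbers share an effect on the members was not tested. With the replicate block, 1113 genes were higher and 955 lower in hdip1/2/3, and no member was called. The total without organellar genes could not be computed, as the values cover chromosomes 1 to 5.

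The limits are 2 libraries per genotype, 1 line per mutant, and a spread between libraries of one genotype as large as the median effect. Depth is not limiting for these genes.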
